A study of Mus musculus with 8 samples.

Results

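The genes described here are 10 genes of Leydig cell hormone production, chosen by name: Star, Cyp11a1, Cyp17a1, Hsd3b1, Hsd3b6, Hsd17b3, Lhcgr, Insl3, Srd5a1 and Nr5a1. Every probe of the array that carried one of these names was taken, which gave 14 of 41174 probes. RNA came from whole testes of male mice at postnatal day 8, from wild type animals and from VRK1-deficient animals, with 4 biological replicates of each and 1 array per replicate. VRK1-deficient mice carry a gene trap, a β-geo cassette inserted in an early intron of Vrk1, which encodes a mitotic kinase. The line came from 1 ES cell clone that was backcrossed to C57BL/6, the allele is hypomorphic rather than null, and the insertion is present in all cells of the animal. The arrays were 1-color Agilent Whole Genome Mouse arrays. Values are log2 processed signals after subtraction of the log2 75th percentile of the same array, so that 0 is the 75th percentile. They compare arrays for 1 probe and do not compare 1 probe with another.

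Leydig cells lie between the seminiferous tubules and make testosterone from cholesterol. Luteinizing hormone binds the receptor Lhcgr, cAMP rises, Star carries cholesterol to the inner mitochondrial membrane, and Cyp11a1, the 3β-hydroxysteroid dehydrogenases, Cyp17a1 and Hsd17b3 convert it in turn to pregnenolone, progesterone, androstenedione and testosterone. At this age of the mouse, fetal Leydig cells, which express little Hsd17b3 and Hsd3b6, are still present and the adult generation is starting to form. Both enzymes are known as genes of the adult generation, whereas Hsd17b3 is also made by fetal Sertoli cells.

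The 2 probes of Vrk1 checked the labels. The first had a mean of 0.16 ± 0.38 (SD, n = 4) in wild type and -3.85 ± 0.27 (n = 4) in VRK1-deficient testes, a log2 change of -4.00 (limma adjusted p = 0.000135), and the second changed by -3.93 (adjusted p = 2.09e-05), with no overlap between genotypes at either probe. The 8 arrays lay on 2 slides, replicates 1 and 2 of both genotypes on slide 1 and replicates 3 and 4 on slide 2. On each slide wild type took positions 1 and 2 and VRK1-deficient positions 3 and 4, so that array position and genotype cannot be told apart. Wild type replicates 1 and 3 were the least alike arrays of their genotype, with a correlation of 0.970 over all tested probes. Replicate 1 correlated at 0.987 to 0.990 with the VRK1-deficient arrays and at 0.970 to 0.986 with the other wild type arrays. Replicate 3 correlated at 0.963 to 0.976 with the VRK1-deficient arrays and at 0.970 to 0.986 with the other wild type arrays. The adjusted p without replicate 1 is given below for the 5 steroidogenesis probes where it was under 0.05. At the other tested steroidogenesis probes it lay between 0.0894 and 0.917. Wild type replicate 1 was singled out from its values. Leaving out the wild type array most like the other genotype widens the difference by construction: 28.4% of all tested probes were then called, 13.7% higher. An adjusted p without this array is read against those shares and supports no single gene.

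Of 26948 probes tested with limma, 1.67% were called higher and 1.99% were called lower in VRK1-deficient testes at an adjusted p under 0.05. Of the 14 probes of the steroidogenesis genes, 13 passed the filter on dim probes and 0 were called. At an unadjusted p under 0.05 there were 5, all higher, from 5 genes (Hsd3b1, Hsd3b6, Hsd17b3, Lhcgr and Nr5a1). The share of all tested probes that was higher at that p was 14.1%. Of the 13 probes, 10 were higher and 3 lower, with a median log2 change of 0.35, and among all tested probes 54.5% were higher with a median of 0.04. The median of the 13 was 0.16 with wild type replicate 3 left out, 0.22 with wild type replicate 2 left out, 0.19 after a normexp background correction and 0.17, with 8 higher and 5 lower, when arrays were not scaled. At 4 probes (Hsd3b6, Hsd17b3, Lhcgr and 1 of Nr5a1) all 4 VRK1-deficient arrays lay above all 4 wild type arrays, as did 9.40% of all tested probes. No probe lay wholly below, against 7.31% of all tested probes. In whole testis RNA, more cells of a type and more RNA per cell cannot be told apart.

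**Figure D1:**
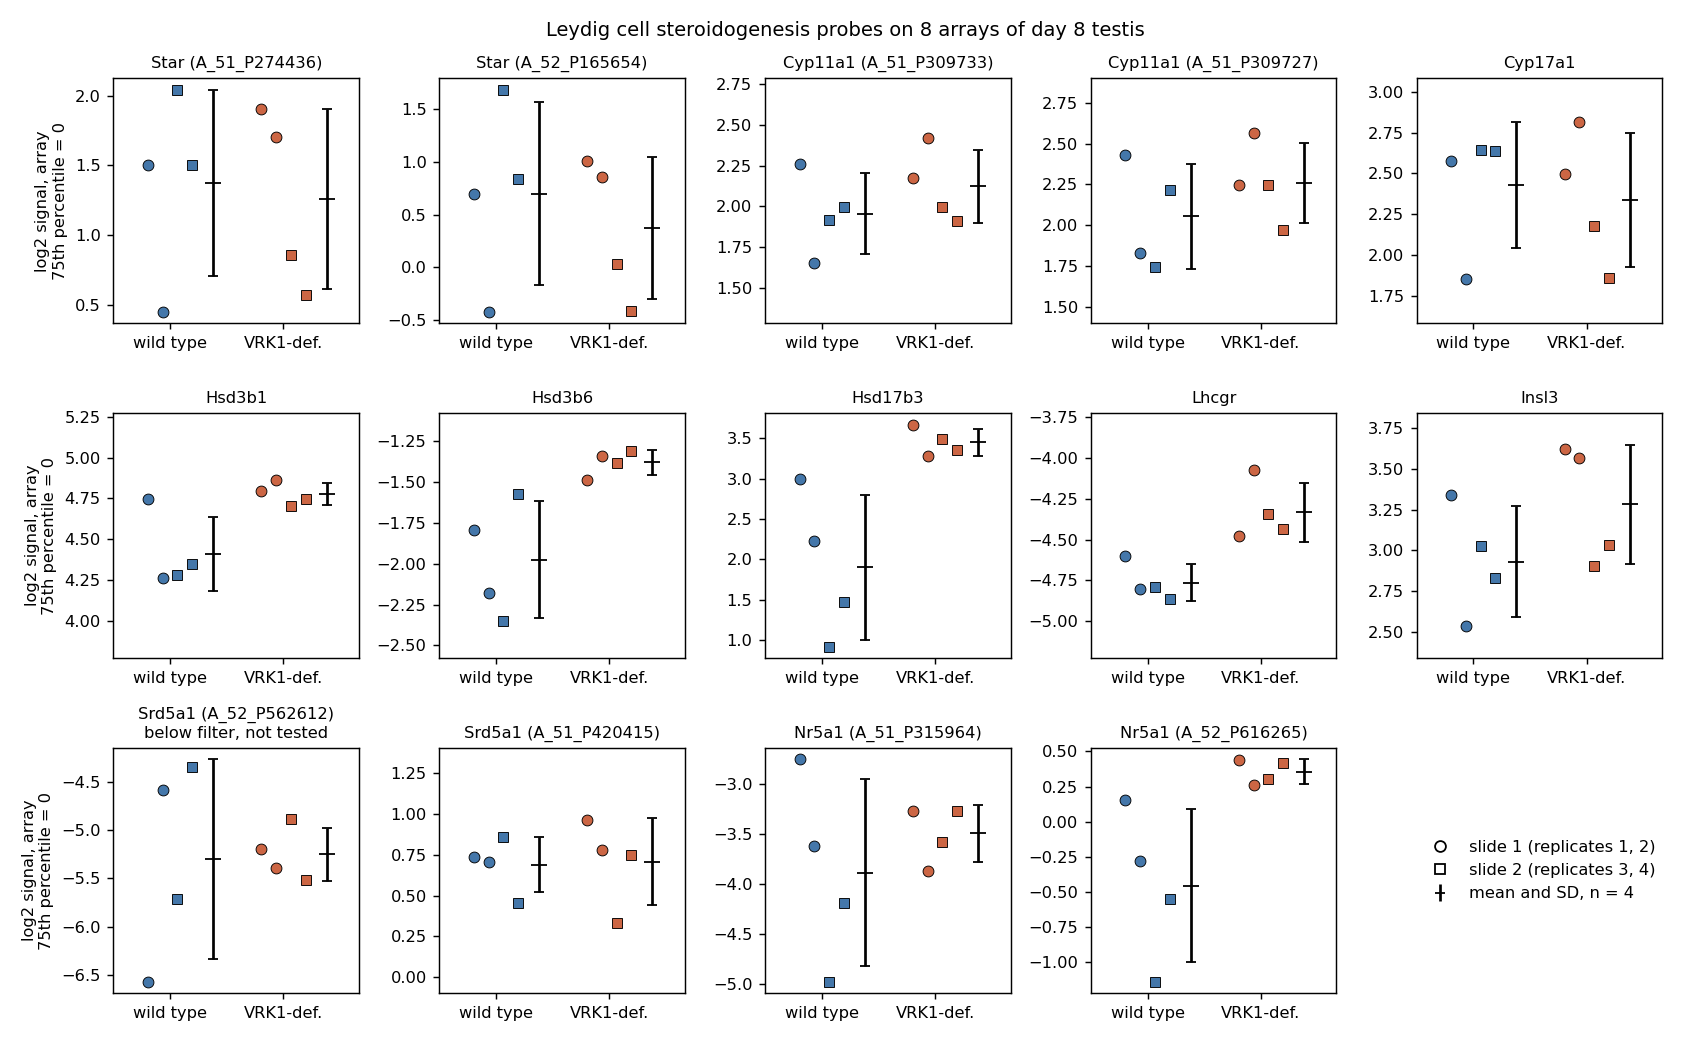
Log2 signal of the 14 probes on each of the 8 arrays, with the 75th percentile of each array at 0 (the range of the vertical axis differs between panels), with the mean and SD of 4 arrays per genotype. Circles are arrays of slide 1 and squares arrays of slide 2. For Hsd3b6, Hsd17b3, Lhcgr and probe A_52_P616265 of Nr5a1 all VRK1-deficient arrays lie above all wild type arrays, whereas for Star and Cyp17a1 the slide 2 arrays lie below the slide 1 arrays in VRK1-deficient testes.

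The sequences of 3 probes are shown as examples. Each holds a reading frame without a stop codon over its 60 bases, which does not show that it lies in coding sequence. Other probes of the set, among them A_52_P616265 of Nr5a1, also hold such a frame and are not shown. The Hsd17b3 and Hsd3b6 probes separated the genotypes, and the Cyp17a1 probe changed direction between slides. The 60 bases of the Hsd17b3 probe cover 799 bases of the genome (mm7 chr13:61881657-61882455) and those of the Cyp17a1 probe cover 614 (mm7 chr19:46564738-46565351), so both cross at least 1 intron and read spliced RNA. The Hsd3b6 probe lies in 1 piece (mm7 chr3:98601948-98602007).
Hsd17b3, A_51_P275207: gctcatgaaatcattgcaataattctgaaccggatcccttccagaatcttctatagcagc
Hsd3b6, A_52_P253567: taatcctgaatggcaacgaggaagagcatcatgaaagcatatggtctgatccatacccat
Cyp17a1, A_51_P116813: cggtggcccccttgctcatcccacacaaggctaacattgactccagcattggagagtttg

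The 250 bases upstream of the start are shown for the 3 genes with a RefSeq promoter (GRCm38.p6) whose genotypes did not overlap, and for Cyp11a1, 1 of whose 2 windows holds a nuclear receptor half-site near its start. The other Cyp11a1 window (chr9:57997774-57998023) holds none of the motifs searched and is not shown. The letters searched on both strands were AGGTCA (nuclear receptor half-site), CAAGGTCA (the extended site that Nr5a1 binds, which contains the former), GATAA (GATA factors) and TGACGTCA (cAMP response element). Capitals mark a match. The Hsd17b3 promoter is chr13:64089202-64089451 (minus strand), that of Lhcgr chr17:88792015-88792264 (minus strand), that of Hsd3b6 chr3:98814444-98814693 (minus strand) and the Cyp11a1 window shown is chr9:58014702-58014951 (plus strand).
Hsd17b3: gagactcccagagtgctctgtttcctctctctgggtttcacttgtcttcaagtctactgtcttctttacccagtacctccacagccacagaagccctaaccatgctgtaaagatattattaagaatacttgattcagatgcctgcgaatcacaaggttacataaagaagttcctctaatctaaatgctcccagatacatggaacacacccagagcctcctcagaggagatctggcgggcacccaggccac
Lhcgr: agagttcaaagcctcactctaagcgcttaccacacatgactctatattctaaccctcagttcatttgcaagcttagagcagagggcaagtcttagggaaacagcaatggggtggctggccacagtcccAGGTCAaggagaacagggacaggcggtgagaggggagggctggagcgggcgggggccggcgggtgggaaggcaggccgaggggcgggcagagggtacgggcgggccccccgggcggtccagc
Hsd3b6: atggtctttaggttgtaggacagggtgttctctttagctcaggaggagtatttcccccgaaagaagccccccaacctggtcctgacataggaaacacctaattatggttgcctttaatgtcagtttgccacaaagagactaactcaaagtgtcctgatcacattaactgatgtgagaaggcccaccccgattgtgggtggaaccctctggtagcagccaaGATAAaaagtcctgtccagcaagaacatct
Cyp11a1: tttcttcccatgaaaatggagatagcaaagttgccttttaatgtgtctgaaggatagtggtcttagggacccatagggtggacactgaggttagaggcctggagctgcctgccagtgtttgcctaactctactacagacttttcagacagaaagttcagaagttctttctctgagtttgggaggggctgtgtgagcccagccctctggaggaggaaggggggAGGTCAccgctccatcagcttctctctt

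RefSeq windows were found for 7 of the 10 genes, 8 windows in all. AGGTCA stood in 2 of them, 122 bases upstream of the start in Lhcgr and 28 bases upstream in Cyp11a1, and in 14.0% of all 32851 windows. GATAA stood in 2, 30 bases upstream in Hsd3b6 and 134 bases upstream in Hsd3b1 (minus strand), and in 22.6% of all windows. The extended site and the cAMP response element stood in 0 of 8, and in 1.33% and 1.55% of all windows. The Hsd17b3 window held none of the 4 motifs. A match is a run of letters and is no measure of binding.

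Lhcgr, the receptor for luteinizing hormone, was measured by 1 probe (A_51_P281686, NM_013582, mm7 chr17:87049193-87049252). Its levels were -4.60, -4.80, -4.79 and -4.86 in wild type replicates 1 to 4 and -4.48, -4.08, -4.34 and -4.44 in VRK1-deficient replicates 1 to 4. The genotypes did not overlap, and the wild type array nearest to the VRK1-deficient arrays was replicate 1. The change was 0.43 (95% interval 0.15 to 0.71, 1.35-fold, limma adjusted p = 0.0738), with 0.42 on slide 1 and 0.44 on slide 2. The probe was dim, with mean intensities of 26.9 and 32.6, and after a normexp background correction the change was 0.15 (adjusted p = 0.275). Without wild type replicate 1 the adjusted p was 0.0233, and it lay between 0.103 and 0.186 with any other array left out.

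Star, which delivers cholesterol to the mitochondrion and is the acutely hormone-regulated step, was measured by a pair of probes. Probe A_51_P274436 (NM_011485, mm7 chr8:24570752-24570811) read 1.51, 0.45, 2.04 and 1.50 in wild type and 1.90, 1.70, 0.86 and 0.57 in VRK1-deficient testes. Probe A_52_P165654 (mm7 chr8:24571477-24571536) read 0.69, -0.42, 1.68 and 0.84 in wild type and 1.01, 0.86, 0.03 and -0.41 in VRK1-deficient testes. At both probes the genotypes overlapped over almost their whole range, wild type replicate 2 was the lowest array of its genotype, and the slide 2 arrays of VRK1-deficient testes were the lowest of theirs. The changes were -0.12 (95% interval -0.99 to 0.75, adjusted p = 0.861) and -0.33 (-1.35 to 0.70, adjusted p = 0.658). As folds, the intervals ran from 0.504 to 1.69 and from 0.393 to 1.62.

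Within slides, Star had opposite signs. The first probe was higher by 0.82 in VRK1-deficient testes on slide 1 and lower on slide 2, with a change of -1.06. The second gave 0.80 and -1.45. A slide by genotype interaction, added after these values were seen, was -1.88 (95% interval -3.05 to -0.72, limma adjusted p = 0.728) for the first probe and -2.25 (-3.60 to -0.89, adjusted p = 0.728) for the second. Both probes read the same RNA of the same animals and are not independent.

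Cyp11a1, the side-chain cleavage enzyme that makes pregnenolone from cholesterol, was also measured by a pair of probes that the array files place on an unplaced contig of chromosome 9. Probe A_51_P309727 (NM_019779) read 2.43, 1.83, 1.74 and 2.22 in wild type and 2.25, 2.57, 2.25 and 1.97 in VRK1-deficient testes. Probe A_51_P309733 read 2.26, 1.65, 1.92 and 1.99 in wild type and 2.17, 2.42, 1.99 and 1.91 in VRK1-deficient testes. Wild type replicate 1 was as high as most VRK1-deficient arrays and the genotypes overlapped at both. The changes were 0.20 (-0.22 to 0.63, adjusted p = 0.492) and 0.17 (-0.20 to 0.54, adjusted p = 0.519). As folds, the intervals ran from 0.860 to 1.54 and from 0.870 to 1.45.

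Cyp17a1, which carries out the 17-hydroxylation and the lyase step toward androgens, had 1 probe (NM_007809). It read 2.58, 1.85, 2.65 and 2.64 in wild type and 2.50, 2.81, 2.18 and 1.86 in VRK1-deficient testes. The genotypes overlapped fully, and the lowest value of each, wild type replicate 2 and VRK1-deficient replicate 4, were 1.85 and 1.86. The change was -0.09 (-0.65 to 0.46, adjusted p = 0.824). As with Star, it was positive on slide 1 (0.44) and negative on slide 2 (-0.63), with an interaction of -1.07 (-1.94 to -0.19, adjusted p = 0.728).

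Hsd3b1 and Hsd3b6 are closely related 3β-hydroxysteroid dehydrogenases, which turn pregnenolone into progesterone, and cross-hybridization between them was not tested. Hsd3b1 (A_51_P421418, NM_008293, mm7 chr3:98647842-98647901), the form of fetal and adult Leydig cells, read 4.75, 4.26, 4.28 and 4.35 in wild type and 4.79, 4.86, 4.70 and 4.74 in VRK1-deficient testes. Wild type replicate 1 lay within the VRK1-deficient range, and the other wild type arrays lay below it. The change was 0.37 (0.07 to 0.66, 1.29-fold, adjusted p = 0.115), and without wild type replicate 1 it was 0.48 (adjusted p = 0.0109). With any other array left out the adjusted p lay between 0.171 and 0.263, and without scaling the change was 0.19 (adjusted p = 0.693). Hsd3b6 (A_52_P253567, NM_013821) read -1.80, -2.18, -2.35 and -1.57 in wild type and -1.49, -1.34, -1.38 and -1.31 in VRK1-deficient testes. All VRK1-deficient arrays were higher and were close to each other, with an SD of 0.08 against 0.36 in wild type. The change was 0.60 (0.20 to 0.99, 1.51-fold, adjusted p = 0.0738), with 0.58 on slide 1 and 0.62 on slide 2. Without wild type replicate 1 the adjusted p was 0.0310, and with any other array left out it lay between 0.109 and 0.193.

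Hsd17b3, the enzyme that reduces androstenedione to testosterone, had the largest change of the 13 probes (A_51_P275207, NM_008291). It read 2.99, 2.22, 0.92 and 1.47 in wild type and 3.67, 3.28, 3.49 and 3.36 in VRK1-deficient testes. Every VRK1-deficient array lay above every wild type array, while the wild type arrays spread over 2.07 log2 units with replicate 1 the highest and replicate 3 the lowest. The mean was 1.90 ± 0.90 in wild type and 3.45 ± 0.17 in VRK1-deficient testes (SD, n = 4 each). The change was 1.55 (0.69 to 2.41), or 2.93-fold (1.61 to 5.32), with an adjusted p of 0.0559, just short of the threshold. It was 0.87 on slide 1 and 2.23 on slide 2, and the interaction was 1.36 (0.35 to 2.37, adjusted p = 0.728). The adjusted p was 0.0488 with slide as a block and 0.0462 when only probes detected on all 8 arrays were tested, but 0.0992 with no filter on dim probes, 0.119 with the methods' t-test and 0.500 on slide 1 alone. Without wild type replicate 1 the change was 1.91 (adjusted p = 0.00395), whereas with any other array left out the adjusted p lay between 0.0789 and 0.158.

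**Figure D2:**
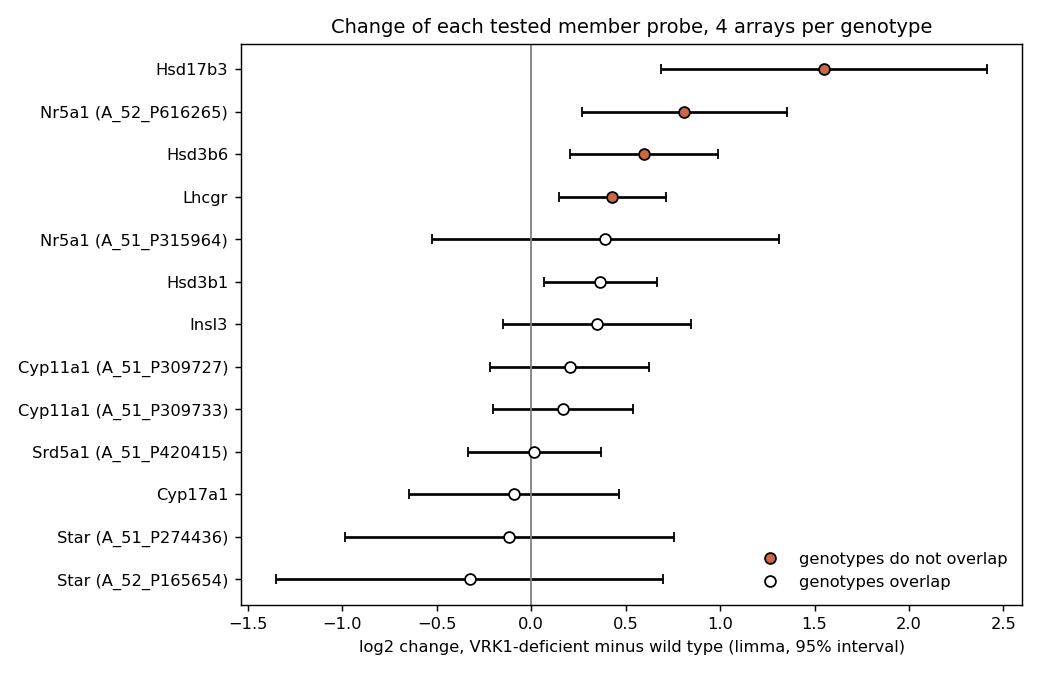
Log2 change (VRK1-deficient minus wild type) of the 13 tested probes with its 95% interval from limma, 4 arrays per genotype. Filled points mark the 4 probes whose genotypes do not overlap. The 4 largest changes, from 0.43 to 1.55, are those of the filled points, and the intervals of Star and Cyp17a1 span 0.

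Srd5a1, 5α-reductase type 1, which in the immature testis turns testosterone toward androstanediol, was measured by a pair of probes. Its tested probe (A_51_P420415, NM_175283, mm7 chr13:66484124-66484183) read 0.74, 0.70, 0.86 and 0.46 in wild type and 0.96, 0.78, 0.33 and 0.75 in VRK1-deficient testes. The genotypes overlapped and the change was 0.02 (-0.34 to 0.37, adjusted p = 0.952). As folds, the interval ran from 0.792 to 1.29. The other probe (A_52_P562612, AK082819) was well above background on 3 of 8 arrays and was not tested. It read -6.57, -4.59, -5.71 and -4.35 in wild type and -5.20, -5.39, -4.89 and -5.52 in VRK1-deficient testes.

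Insl3, the Leydig cell peptide hormone that drives testis descent, had 1 probe (A_51_P288406, NM_013564, mm7 chr8:70157953-70158012). The array files also list this probe for a transcript of Jak3, its neighbor on the chromosome. It read 3.34, 2.53, 3.03 and 2.83 in wild type and 3.62, 3.57, 2.91 and 3.03 in VRK1-deficient testes. The slide 1 arrays of VRK1-deficient testes were the highest of all, and the slide 2 arrays lay within the wild type range. The change was 0.35 (-0.15 to 0.85, adjusted p = 0.318), with 0.66 on slide 1 and 0.04 on slide 2.

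Nr5a1 (steroidogenic factor 1), the nuclear receptor that drives most genes of this set and is also expressed by Sertoli cells, had a pair of probes that differed. Probe A_52_P616265 (NM_139051, mm7 chr2:38700812-38700871) read 0.16, -0.28, -1.14 and -0.55 in wild type and 0.44, 0.26, 0.30 and 0.42 in VRK1-deficient testes. It separated the genotypes, and wild type replicate 1 was the nearest to the VRK1-deficient arrays. The change was 0.81 (0.27 to 1.35, 1.75-fold, adjusted p = 0.0760), with 0.42 on slide 1 and 1.21 on slide 2. Without wild type replicate 1 the adjusted p was 0.00852, and with any other array left out it lay between 0.0914 and 0.190. Probe A_51_P315964 (D10584, mm7 chr2:38708750-38708809) read -2.75, -3.62, -4.98 and -4.19 in wild type and -3.27, -3.87, -3.58 and -3.27 in VRK1-deficient testes. Here wild type replicate 1 was the highest of all arrays and the genotypes overlapped, with a change of 0.39 (-0.53 to 1.31, adjusted p = 0.546). Its change was -0.38 on slide 1 and 1.17 on slide 2 (interaction 1.55, adjusted p = 0.728). Probe A_51_P315964 was dim, with mean intensities of 57.6 in wild type and 57.8 in VRK1-deficient testes. Those of probe A_52_P616265 were 564 and 829.

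The probes differed in which arrays were lowest. In wild type, replicate 2 was the lowest array at 6 of the 13 probes (both of Star, 1 of Cyp11a1, Cyp17a1, Hsd3b1 and Insl3), and replicate 3 at 5 (the other of Cyp11a1, Hsd3b6, Hsd17b3 and both of Nr5a1). Replicate 1 was the highest at 8. In VRK1-deficient testes both slide 2 arrays lay below both slide 1 arrays at 8 of 13 probes, against 18.2% of all tested probes, and in wild type this was so at 3. The sign of the change differed between slides at 6 of 13 probes, against 31.2% of all tested probes, and 7 were higher on both slides. No share of all tested probes is given for the wild type counts or for probes higher on both slides. Those counts are therefore not read as traits of the set or as a contrast of genotypes. The interaction was called at 0 of 13 probes, and at 0.00% of all tested probes. At an unadjusted p under 0.05 it held 5 of the 13 (both of Star, Cyp17a1, Hsd17b3 and 1 of Nr5a1), against 5.47% of all tested probes. The smallest adjusted p over all probes was 0.626.

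**Figure D3:**
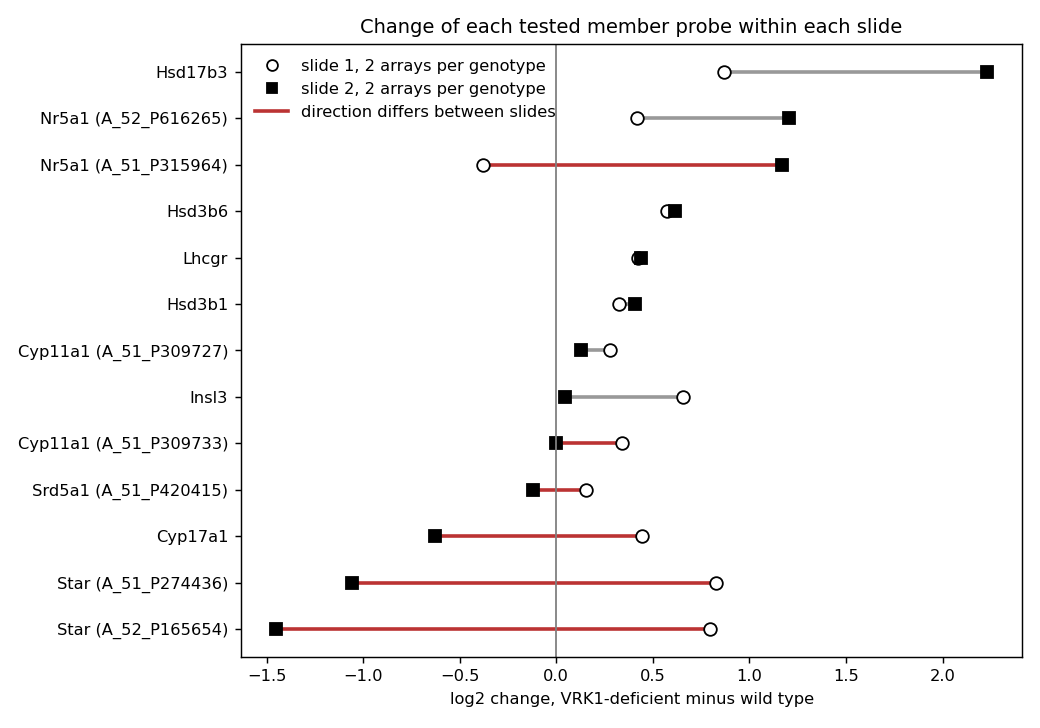
Log2 change (VRK1-deficient minus wild type) of each of the 13 tested probes within slide 1 (open circles) and slide 2 (filled squares), each from 2 arrays per genotype. Red lines join the 6 probes whose direction differs, among them Star (0.82 and -1.06 at the first probe) and Cyp17a1 (0.44 and -0.63). Hsd17b3 is higher on both slides, by 0.87 and 2.23.

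Beyond these genes, 120 genes were listed in 7 groups around Leydig cell steroid production, and 105 passed the filter, each by its brightest probe. Of these, 87 were higher and 18 lower in VRK1-deficient testes, with a median change of 0.27. Thus 82.9% were higher, against 54.5% of all tested probes. The shares of all tested probes count every tested probe of a gene and not only the brightest, so the selections are not alike. Other tested probes of some genes counted as higher were lower, among them those of Creb1, Stard4, Soat1, Nr3c1, Mef2a and Mef2d. Cebpb and Igf1r counted as lower and had other probes that were higher. The counts of genes depend on this choice of probe. Called were 4, all higher (Akr1c14, Fgf9, Pdgfra and Esr2), and 0 were called lower. All 4 VRK1-deficient arrays lay above all wild type arrays for 19 genes (18.1%, against 9.40% of all tested probes) and below for 2 (1.90%, against 7.31%). With wild type replicate 1 left out 40 were called (38.1%, against 28.4% of all tested probes), and with any other array left out 0 or 1.

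In the group of luteinizing hormone reception and cAMP signaling, 13 of 15 genes were higher and 0 were called (median 0.16). Prlr, the prolactin receptor, which raises Lhcgr in Leydig cells, changed by 0.61 (0.27 to 0.94, adjusted p = 0.0550) without overlap of the genotypes. Arrb2, which uncouples activated receptors, changed by -0.64 (adjusted p = 0.0868), and Gnas, the stimulatory G protein, by 0.49 (adjusted p = 0.251). In cholesterol supply, 9 of 15 were higher and 0 were called (median 0.07), near the median of all probes. The largest change was that of Vdac1, the outer mitochondrial channel, at 0.42 (adjusted p = 0.113). Acbd3, which binds the cholesterol transport complex, changed by -0.32 (adjusted p = 0.161), and Osbpl5, a sterol carrier, by 0.18 (adjusted p = 0.358).

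Of 7 genes listed as electron donors of the steroid hydroxylases, 5 were higher and 0 were called (median 0.11). The list also holds Tbxas1 (0.05) and H6pd (0.23), which are not such donors and are both among the 5. Fdxr, which feeds electrons to Cyp11a1, changed by 0.51 (adjusted p = 0.173). Cyb5a, which favors the lyase step of Cyp17a1, changed by 0.42 (0.14 to 0.69, adjusted p = 0.0736), with the VRK1-deficient arrays all above. Por, the reductase of microsomal cytochromes P450, changed by -0.30 (-0.58 to -0.01, adjusted p = 0.159), with the VRK1-deficient arrays all below.

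Of 25 other steroid-converting enzymes, 16 were tested, 14 were higher and 1 was called (median 0.33). Akr1c14, a 3α-hydroxysteroid dehydrogenase that makes androstanediol in the immature testis, rose from -2.14 ± 0.27 to -1.32 ± 0.10 (SD, n = 4 each), a change of 0.82 (0.48 to 1.15, adjusted p = 0.0417). The genotypes did not overlap, and dropping any array besides wild type replicate 1 gave an adjusted p between 0.0419 and 0.147. Hsd17b1, known from fetal Sertoli and granulosa cells, changed by 1.78 (0.78 to 2.78, adjusted p = 0.0573), from 1.15 ± 1.04 to 2.93 ± 0.29, with 0.90 on slide 1 and 2.66 on slide 2. Hsd3b2 changed by 0.61 (adjusted p = 0.310). The 9 enzymes below the filter, Cyp19a1 (aromatase) and Srd5a2 among them, were well above background on 0 of 8 arrays.

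Of 27 transcription factors of Leydig cells, 25 were tested, 24 were higher and 0 were called (median 0.37). The other tested probes of Nr3c1, Mef2a and Mef2d, which counted as higher, were lower (-1.02, -0.86 and -0.30 for Nr3c1). Cebpb, which counted as lower at -0.04, had another probe at 0.24. Nr4a1 (Nur77), induced by luteinizing hormone, changed by 0.95 (adjusted p = 0.119), Gata4 by 0.84 (adjusted p = 0.154) and Egr1 by 0.82 (adjusted p = 0.106). Gata4 is a factor of Sertoli cells too. Of 20 growth signals, 18 were tested, 16 were higher and 2 were called (median 0.43). Pdgfra, the platelet-derived growth factor receptor of Leydig precursors, rose by 0.50 (0.25 to 0.75, adjusted p = 0.0491), from 2.18 ± 0.13 to 2.68 ± 0.09. Fgf9 rose by 0.68 (0.34 to 1.02, adjusted p = 0.0492) at a dim probe, from -4.25 ± 0.21 to -3.57 ± 0.21. Amh, a Sertoli cell hormone that restrains Leydig cell differentiation, changed by 1.19 (adjusted p = 0.115).

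Of 11 steroid receptors and androgen-responsive genes, 9 were tested, 6 were higher and 1 was called (median 0.36). Esr2, estrogen receptor β, rose by 1.60 (0.83 to 2.37, adjusted p = 0.0473), from -4.01 ± 0.77 to -2.42 ± 0.27, also at a dim probe. Rhox5, a Sertoli cell homeobox gene that androgen induces, changed by -1.08 (-1.95 to -0.22, adjusted p = 0.111), and Drd4 by -0.65 (adjusted p = 0.175). Eppin was lower too, at -0.16, whereas Shbg and Fkbp5 were higher, by 0.49 and 0.37. The summed linear level of the list was 27.6 to 39.7 in wild type and 20.6 to 34.0 in VRK1-deficient testes, so the positive median does not describe all its genes. Leaving out any array besides wild type replicate 1 gave an adjusted p between 0.0698 and 0.153 for Pdgfra, between 0.0745 and 0.150 for Fgf9 and between 0.0768 and 0.147 for Esr2.

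**Figure D4:**
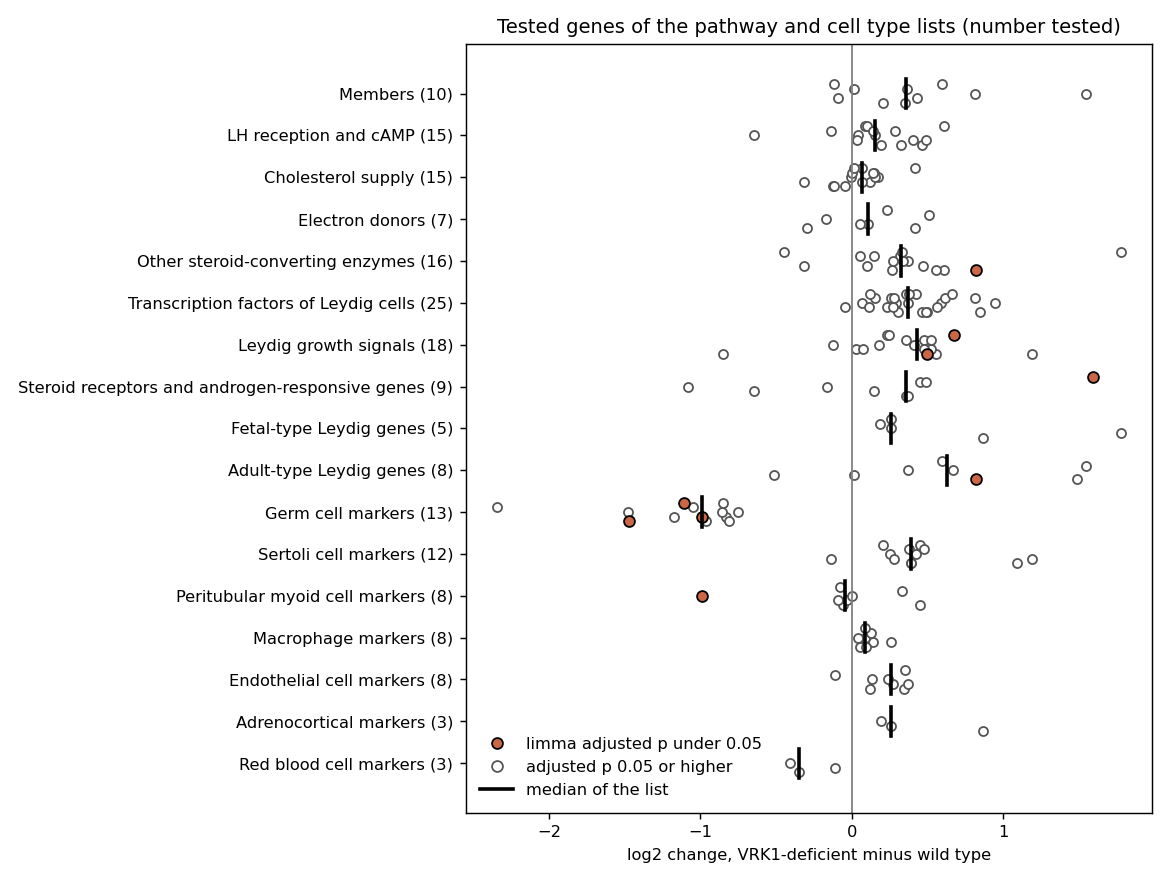
Log2 change (VRK1-deficient minus wild type) of each tested gene in the steroidogenesis set, the 7 groups around it and the cell type marker lists, with the number tested after each name. Filled points are genes with a limma adjusted p under 0.05 and bars are list medians. The medians run from 0.07 for cholesterol supply to 0.43 for growth signals among the 7 groups, and the germ cell markers lie at a median of -0.99.

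Marker lists of the cell types in the testis were set beside these values. Their levels were summed on each array on a linear scale where the 75th percentile is 1, a sum in which bright probes weigh most. Of the genes typical of adult Leydig cells, 3 of which are also in the steroidogenesis set (Hsd3b6, Hsd17b3 and Srd5a1), 7 of 8 tested were higher and 1 was called (Akr1c14), with a median of 0.63. Their sum was 7.98 to 16.4 in wild type and 19.7 to 23.6 in VRK1-deficient testes. Hsd17b3 alone made up 1.89 to 7.95 and 9.71 to 12.7 of it, and without Hsd17b3 the sum was at most 8.45 in wild type and at least 8.87 in VRK1-deficient testes. Ptgds, a prostaglandin synthase also made by Sertoli cells, changed by 1.49 (adjusted p = 0.0586), with 0.71 on slide 1 and 2.26 on slide 2. Vcam1, the brightest of the list after Hsd17b3 and also an endothelial gene, changed by 0.67 (adjusted p = 0.0608). Hsd11b1 changed by 0.37 and Srd5a1 by 0.02. The sum is therefore not one of Leydig cells alone. The lower gene was Cyp2a4, at -0.51 (adjusted p = 0.391). Sult1e1, the estrogen sulfotransferase of mature Leydig cells, was well above background on 0 arrays. Of the genes typical of fetal Leydig cells, 5 of 5 tested were higher and 0 were called, with a median of 0.26 and a sum of 8.25 to 12.7 against 13.6 to 21.8. The list holds Hsd17b1, which is also a Sertoli cell gene and made up 1.16 to 5.64 and 5.74 to 9.23 of the sum, and without it the sums overlapped (6.28 to 8.22 against 7.51 to 12.5). Thbs2 changed by 0.26 and Mc2r by 0.26, Akr1b7 by 0.86 (adjusted p = 0.0509). Cyp11b2 and Cyp21a1, defining enzymes of the adrenal cortex, were well above background on 0 arrays. The 3 adrenocortical genes that passed the filter (Akr1b7, Mc2r and Mrap) were higher, 0 were called, and their sum was 1.78 to 2.89 against 3.02 to 4.04. Akr1b7 and Mc2r are also in the fetal list, and Akr1b7, the brightest of the 3, weighs most in this sum.

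Of 13 germ cell markers tested, 13 were lower and 3 were called (Tdrd9, Tdrd1 and Sall4), with a median of -0.99, and the sum was 102 to 253 in wild type and 64.6 to 111 in VRK1-deficient testes. Of 12 Sertoli cell markers, 11 were higher and 0 were called, with a median of 0.39 and a sum of 319 to 443 against 410 to 482. Fshr, the receptor for follicle-stimulating hormone, changed by 1.09 (adjusted p = 0.0597), and the lower gene was Gata1, at -0.14 (adjusted p = 0.760). Macrophage markers had a median of 0.09 (8 of 8 higher, 0 called, sum 13.2 to 19.4 against 17.9 to 21.3) and endothelial markers 0.26 (7 of 8 higher, 0 called, sum 4.80 to 5.94 against 5.66 to 6.41). Peritubular myoid markers had a median of -0.04 (3 of 8 higher, sum 154 to 172 against 136 to 174), and Cnn1, a smooth muscle calponin, was called lower with a change of -0.99. Its limma adjusted p lay between 0.0661 and 0.147 with any array besides wild type replicate 1 left out. Red blood cell markers were lower at 3 of 3 (median -0.35, sum 32.9 to 78.8 against 34.2 to 80.0). The part of the germ cell and Sertoli cell lists in the values of the steroidogenesis genes was not tested.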

How the data were processed

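Testis RNA of postnatal day 8 was labeled with Cy3, and each of 8 samples, 4 per genotype, was hybridized to its own 1-color Agilent array. Signals were extracted by the authors with Agilent Feature Extraction (9.5.3.1, from the submitters' processing notes), and the deposited values are background-subtracted processed signals, linear intensity values without scaling between arrays. GeneSpring GX is named for later steps, with no normalization given in the sources used here. Intensities were log2 transformed and centered on the 75th percentile of each array (642 to 851 in wild type, 548 to 745 in VRK1-deficient). Of 43379 spots that were not controls, 58 to 134 outlier spots per array were left out and 0 were saturated, and spots of a probe were averaged. Between 63.6% and 69.5% of spots stood well above background, and precision is limited by the number of arrays.

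The filter kept probes that were well above background on 4 or more of the 8 arrays. These 26948 probes were fitted in limma 3.58.1 under R 4.3.3 (lmFit, eBayes, two-sided), unpaired, with Benjamini-Hochberg adjustment over all of them, and the threshold for a call was an adjusted p of 0.05. Python 3.11.15 with pandas 2.3.3, numpy 2.4.6 and matplotlib 3.10.9 served for summaries and plots, and the data.table package (1.17.8) for reading. On simulated data built from these arrays (200 changed probes among 26941), limma recovered 153 of the changed probes and called 3 unchanged ones. Residuals were shuffled separately for each probe, so differences shared by a whole array, such as those of wild type replicate 1, were absent. The planted changes were larger than the changes of most steroidogenesis probes. These counts therefore do not give the recovery or the false calls of the real comparison.

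Symbols came from a RefSeq gene table by accession (22951 probes), symbol (6659) or synonym (3109), and 8455 probes kept the name of the file. Positions of probes are given on mm7 as in the array files. No annotation of that build was used, so the exon or untranslated region of a probe is not stated. Promoters were read from RefSeq (GRCm38.p6).

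The members and lists were chosen with earlier results of these data known. Named are all members and, in each group, every called gene filled up to 3 by size of change. Genes named beyond this, and the slide by genotype interaction, were chosen after their values were seen. Alternatives were 3 other scalings, normexp background correction (offset 50), 2 other filters, slide and replicate number as blocks, each slide alone, the methods' t-test, an intensity trend with robust variances, and leaving out each array.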

Additional observations from a re-analysis of the deposited data

Results flagged for a closer look

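At the Cyp17a1 probe (A_51_P116813), wild type replicate 2 read 1.85, while the other 3 wild type arrays read 2.58 to 2.65. The gap was 0.914 of the range of the group. It was the only one of 28 groups (14 probes in each genotype) with such a distant array, and chance alone gives about 1 in 20.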

How the results depend on the processing

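The limits are few arrays, a wild type group whose replicates 1 and 3 differed most, and position confounded with genotype. Called were 986 probes, 0 of the steroidogenesis probes and 4 pathway genes. In that order the counts were 17, 0 and 0 with no filter on dim probes, 1390, 1 and 7 with the filter on all 8 arrays, 641, 1 and 2 with slide as a block, 3, 0 and 0 on slide 1, 1061, 1 and 4 on slide 2, and 1915, 1 and 11 with an intensity trend and robust variances. The methods' t-test gave 162, 0 and 0 after adjustment (7066 probes at an unadjusted p under 0.05). With no scaling between arrays, 2 pathway genes were called, the split over all probes was 852 lower and 64 higher, and the median of all probes moved from 0.04 to -0.14. With arrays left out in turn the counts ranged from 3 to 7655 probes, 0 to 5 steroidogenesis probes and 0 to 40 pathway genes, the highest being without wild type replicate 1. With any other array left out, only 3 to 68 probes were called. The cause was not tested. The single steroidogenesis probe called under these settings was Hsd17b3. Probes with no overlap between genotypes numbered 4 in the main analysis (9.40% of all probes lay wholly above), 1 with no scaling (Hsd17b3; 1.48% of all probes), 3 after normexp (Hsd17b3, Hsd3b1 and Nr5a1; 8.10%) and 5 without wild type replicate 1 (21.1%). These counts were added after seeing the data.

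The sources used here do not say whether replicate numbers pair the samples. Same-numbered deviations correlated at 0.468, 0.0735, 0.188 and -0.138. Differently numbered ones correlated at -0.370 to 0.272, and these values do not settle the question. With replicate number as a block, 2275 probes, 1 steroidogenesis probe (Hsd17b3, adjusted p = 0.0362) and 10 pathway genes were called.

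Of the recomputed changes of single probes, 234 kept direction and call, 10 passed the threshold and 16 reversed. With arrays left out in turn, Star probe A_51_P274436 ranged from -0.425 to 0.113 (0.107 without wild type replicate 3, 0.0167 without VRK1-deficient replicate 3), and it was 0.825 on slide 1. Star probe A_52_P165654 ranged from -0.700 to 0.00279 and was 0.797 on slide 1. Cyp17a1 ranged from -0.285 to 0.0675 and was 0.441 on slide 1. Srd5a1 ranged from -0.0685 to 0.142 (-0.0601 without wild type replicate 4, -0.00757 without VRK1-deficient replicate 2), and was -0.162 without scaling and -0.119 on slide 2. Cyp11a1 probe A_51_P309733 was -0.0114 without scaling and -0.00379 on slide 2, and Nr5a1 probe A_51_P315964 was -0.380 on slide 1.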
